A study of Mus musculus with 8 samples.

Results

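The transporters described here move citrate, succinate and other dicarboxylates, or sulfate, across membranes. The set held 8 genes, found by their Entrez gene IDs in the named gene rows of the arrays, of 24235 named genes in all. The plasma membrane carriers of the Slc13 family were Slc13a1 (Entrez 55961), Slc13a2 (20500), Slc13a3 (114644), Slc13a4 (243755) and Slc13a5 (237831). The carriers of the inner mitochondrial membrane were Slc25a1 (13358), Slc25a10 (27376) and Slc25a11 (67863). The list was drawn up after earlier results from the same 8 arrays were known. Slc13a5 was included for its change between the siRNAs and Slc13a3 for its opposite E2 effects, so both were selected on measured values, which are given below as descriptions, with no test.

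Granulosa cells surround the oocyte and make the estrogen 17β-estradiol (E2), and FOXL2 is one of their transcription factors. Preantral follicles came from Swiss female mice of 8 weeks, and each replicate was a pool from 5 mice. After 9 days in culture the labels describe the cells as mainly granulosa cells. For the last days all cells were kept in hormone-free medium with charcoal-treated serum, and all received a transfection mix with a DsRed plasmid. They received control siRNA or FOXL2 siRNA (12 pmol for 24 hr), and then vehicle or E2 (100 nM for 10 hr before lysis). Each siRNA was combined with each treatment, giving 4 groups of 2 one-colour arrays, or 8 arrays on 1 slide. The comparisons address how transcript levels respond to E2 in each siRNA condition, and to FOXL2 siRNA with and without E2.

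Citrate is made in mitochondria by the tricarboxylic acid (TCA) cycle. SLC25A1 exports it to the cytosol in exchange for malate, and there ATP citrate lyase cleaves it to acetyl-CoA, the building block of fatty acids and cholesterol. SLC13A5 is a sodium-coupled carrier that brings citrate into the cell from outside. SLC13A2 and SLC13A3 do the same for succinate and related dicarboxylates, and are best known from the kidney tubule.

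The level reported is the scaled signal of a gene, its background-subtracted intensity brought to a common 75th percentile of the array, and differences are on the log2 scale. A spot is called well above background by the scanner software. Across genes, the Pearson correlation between replicates was 0.989 to 0.992. Foxl2, the targeted gene, had scaled signals of 6945 to 11234 in the arrays labelled control siRNA and of 7958 to 10854 in those labelled FOXL2 siRNA, a difference of 0.18 (SE 0.10, limma adjusted p = 0.334) over both treatments. Its 2 probes disagreed. With FOXL2 siRNA the dim probe lay at 44.3 to 65.4, below each array of control siRNA at 81.7 to 128, a difference of -0.97, while the bright probe, which sets the level of the gene, differed by 0.18. The bright probe thus showed no fall of the target, and siRNA conditions are given as labelled. Of 10 granulosa cell markers 8 were well above background on at least 1 array, but Fshr and Amh were on none. Among 5 theca cell markers measured 4 were above background, and Lhcgr was on no array. Their summed scaled signal was 124297 to 147983 with control siRNA and 99072 to 119940 with FOXL2 siRNA. Hsd3b1 alone had 57814 to 124559, so the sum rests largely on this gene. The granulosa cell markers summed to 82296 to 93134 with control siRNA and 83457 to 89278 with FOXL2 siRNA. Which cells the marker RNA came from, and the part of other cells in the results, were not tested. Fewer cells of a type cannot be told apart in such bulk samples from less marker RNA per cell, in that or another cell type.

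The promoters of Slc13a5 and Slc13a3 are printed because the largest differences among the transporters were those of these genes, and because FOXL2 and the estrogen receptors act by binding DNA. RefSeq gave promoters for 7 of the 8 genes, as 8 windows, and none was found for Slc13a1. Each sequence is the 250 bases before an annotated transcription start, 5′ to 3′ on the strand of the gene, in build GRCm38.p6. Slc13a5 has one start downstream of the other, with windows at chr11:72267162-72267411 and chr11:72266605-72266854, and Slc13a3 has its window at chr2:165473198-165473447, all on the minus strand. Capitals would mark a match to a forkhead word, meaning GTAAACA, the variant GTAAATA with another sixth base, the variant ATAAACA with another first base, or their combination ATAAATA, or to the estrogen receptor half-site AGGTCA, on either strand.
Slc13a5, upstream start: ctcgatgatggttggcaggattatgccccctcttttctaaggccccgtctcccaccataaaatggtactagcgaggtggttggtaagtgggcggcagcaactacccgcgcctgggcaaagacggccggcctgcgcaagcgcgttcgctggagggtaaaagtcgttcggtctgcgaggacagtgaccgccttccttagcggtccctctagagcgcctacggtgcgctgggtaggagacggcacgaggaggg
Slc13a5, downstream start: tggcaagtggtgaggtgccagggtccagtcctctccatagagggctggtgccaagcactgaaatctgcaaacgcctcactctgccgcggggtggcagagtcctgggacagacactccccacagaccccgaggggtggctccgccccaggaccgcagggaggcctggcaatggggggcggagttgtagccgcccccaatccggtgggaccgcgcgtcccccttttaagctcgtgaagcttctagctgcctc
Slc13a3: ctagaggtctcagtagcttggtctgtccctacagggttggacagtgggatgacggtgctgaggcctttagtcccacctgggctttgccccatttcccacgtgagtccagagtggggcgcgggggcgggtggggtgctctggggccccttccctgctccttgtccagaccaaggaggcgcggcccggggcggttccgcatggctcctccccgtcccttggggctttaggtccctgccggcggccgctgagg
No window of the 7 genes held a match to either motif, so no capitals appear. A forkhead word occurred in 13.6% and a half-site in 14% of the 32851 promoter windows of the same length in the RefSeq table. The absence says only that these letters do not occur in these windows.

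The transporters differed in whether they were detected. Slc13a5 and the mitochondrial carriers, 4 genes in all, were well above background on 8 of 8 arrays. Slc13a4 was well above background on 5 arrays, Slc13a3 on 4 and Slc13a2 on 1. Slc13a1, a sulfate carrier of kidney and intestine, was well above background on 0 arrays, with scaled signals of 2.70 to 6.00. The filter on dim genes, a median scaled signal of at least 10, kept 6 of the 8 genes for the tests and left out Slc13a1 and Slc13a2. Each gene had 1 probe, apart from Slc13a5, which had 2.

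**Figure D1:**
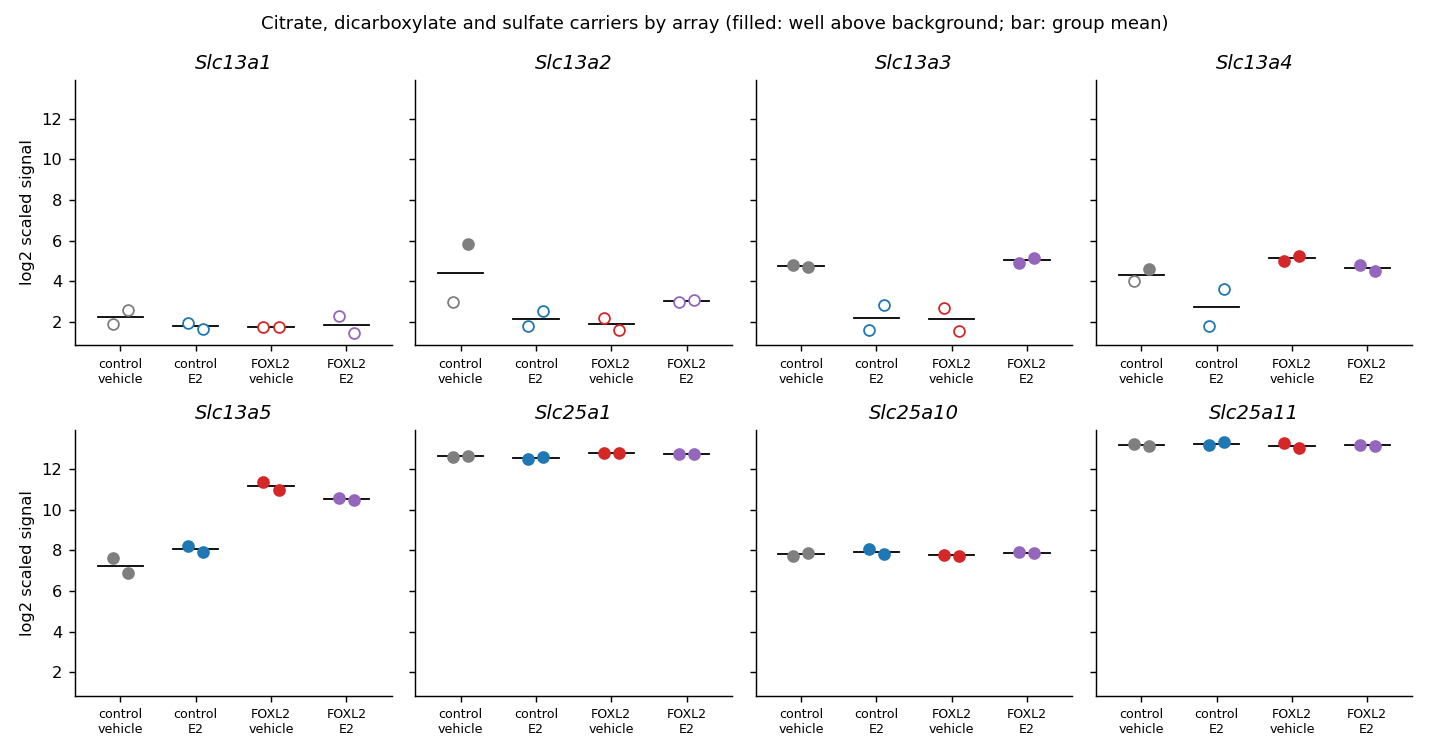
Scaled signal of each transporter gene on the 8 arrays, on a log2 axis, by siRNA and treatment. Filled points were well above background, open points were not, and bars are means of 2 arrays. Slc13a5 lies higher on the 4 arrays labelled FOXL2 siRNA, while Slc13a3 is filled only with control siRNA and vehicle and with FOXL2 siRNA and E2.

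Slc13a5, the citrate importer, was higher in the arrays labelled FOXL2 siRNA at both treatments. With control siRNA its scaled signal was 194 and 117 with vehicle, and 293 and 240 with E2. With FOXL2 siRNA it was 2677 and 2012 with vehicle, and 1517 and 1404 with E2. Every array labelled FOXL2 siRNA was thus above every array labelled control siRNA. The difference was 3.94 (SE 0.24) with vehicle, a 15.4-fold higher signal, and 2.46 (SE 0.24) with E2, or 5.49-fold. Over both treatments it was 3.20 (SE 0.17). The 2 probes of the gene differed by 3.89 and 4.02 with vehicle, and by 2.44 and 2.48 with E2.

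The E2 effects on Slc13a5 ran in opposite directions in the 2 siRNA conditions and passed the test only with the replicate number as a block, which the labels do not say marks a shared pool. With control siRNA both E2 arrays lay above both vehicle arrays, by 0.82 on average (SE 0.24, limma adjusted p = 0.812). This value was 1.18 without replicate 1 of the vehicle arrays and 0.45 without replicate 2, and 27.1% of all genes tested did not overlap in this comparison. With FOXL2 siRNA both E2 arrays lay below the vehicle arrays, a difference of -0.67 (SE 0.24, adjusted p = 1.00), and 27.5% of all genes did not overlap. The difference of the E2 effects was -1.49 (SE 0.34, 95% interval -2.29 to -0.69, adjusted p = 0.336). With the block the limma adjusted p of these 3 values was 0.0100, 0.0430 and 0.000987, in this order. The difference of the E2 effects equals the difference between the siRNAs with E2 minus that with vehicle, for which Slc13a5 was chosen. Both E2 effects use the same arrays, so these p-values are not independent of the choice and nothing is read from them. Slc13a5 thus had its lowest level with control siRNA and vehicle, followed by E2 under control siRNA, then E2 under FOXL2 siRNA, then vehicle under FOXL2 siRNA. No arrays of neighbouring groups in this order overlapped, yet within each siRNA the step between treatments was not called without the block.

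Slc13a3, a high-affinity carrier of succinate, 2-oxoglutarate and N-acetylaspartate, was detected in only 2 of the 4 groups. With control siRNA its scaled signal was 27.6 and 26.0 with vehicle, and 3.01 and 7.04 with E2. With FOXL2 siRNA it was 6.45 and 2.94 with vehicle, and 29.6 and 35.7 with E2. The arrays of control siRNA with E2 and of FOXL2 siRNA with vehicle were not well above background and did not separate from each other. E2 therefore went with a lower signal in one siRNA condition and with a higher one in the other. With control siRNA Slc13a3 was at least 2.29-fold lower with E2, and with FOXL2 siRNA at least 2.49-fold higher with E2. FOXL2 siRNA gave a signal at least 2.05-fold lower with vehicle and at least 2.77-fold higher with E2. These bounds set the detected group against the lowest signal among probes well above background, or the gene's own where that was higher. The difference of the E2 effects, computed from the dim values as measured, was 5.44 (SE 0.76). It includes 4 arrays not well above background, so its size is not measured and only the bounds hold. Averaged over both treatments, the difference of Slc13a3 between the siRNAs was 0.10 (SE 0.38, limma adjusted p = 0.906). Its 95% interval, -0.79 to 0.98, left room for a change in either direction. This average is the mean of -2.62 with vehicle and 2.82 with E2, which nearly cancel. Both rest in part on arrays not well above background, so the average does not show that FOXL2 siRNA had no effect on the gene.

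Slc13a4, a sulfate carrier known from placenta and brain, was dim. Its scaled signal was 16.0 and 24.5 with control siRNA and vehicle, and 3.43 and 12.4 with control siRNA and E2. With FOXL2 siRNA it was 32.2 and 37.8 with vehicle, and 28.0 and 22.4 with E2. All 4 arrays labelled FOXL2 siRNA were well above background, but only 1 of the 4 labelled control siRNA was, namely replicate 2 with vehicle. The difference over both treatments was 1.38 (SE 0.40), and it did not pass the test (limma adjusted p = 0.0659). The arrays overlapped, since 24.5 with control siRNA lay above 22.4 with FOXL2 siRNA. With E2 alone Slc13a4 was at least 2.02-fold higher with FOXL2 siRNA (adjusted p = 0.122). When each array was omitted in turn, in 8 fits, the difference with E2 was 1.01 to 2.87 (adjusted p = 0.0371 to 0.356), and that over both treatments 0.92 to 1.84 (adjusted p = 0.0119 to 0.170). Both passed in 1 of the 8 fits, which left out replicate 2 of the group given control siRNA and E2. The array then left in that group, at 3.43, was not well above background, and its spread was assumed to be that of the other groups. With the replicate block both differences passed as well (adjusted p = 0.0126 and 0.00729). The E2 effect was -1.60 with control siRNA (95% interval -2.93 to -0.28, limma adjusted p = 0.935), and was -2.53 to -0.68 when arrays were left out. The vehicle array at 16.0 was not well above background, so no bound is given for this effect. Under FOXL2 siRNA the effect was -0.48 (adjusted p = 1.00).

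Slc13a2, a low-affinity carrier of succinate and citrate in the kidney and intestine, rested on 1 array. Its scaled signal was 7.78 and 56.3 with control siRNA and vehicle, and only the value of 56.3, of replicate 2, was well above background. It was 3.47 and 5.69 with control siRNA and E2, 4.55 and 3.06 with FOXL2 siRNA and vehicle, and 7.77 and 8.44 with FOXL2 siRNA and E2. Because the other array of control siRNA with vehicle, at 7.78, was not well above background, no bound is given for the difference of Slc13a2 from this group. It was below the filter and was not tested. Among 6 kidney tubule markers, Slc22a6 and Cubn were well above background on 8 arrays, Lrp2 on 4 and Slc34a1 on 3. Umod and Slc22a8 were on none.

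The mitochondrial carriers were bright or steady, and none of them passed the test in any comparison as fitted without a replicate block. Slc25a1, the citrate carrier, had scaled signals of 6192 and 6455 with control siRNA and vehicle, and of 5769 and 6130 with control siRNA and E2. With FOXL2 siRNA it had 7130 and 7118 with vehicle, and 6970 and 6963 with E2. All 4 arrays labelled FOXL2 siRNA lay above all 4 labelled control siRNA, as they did for Slc13a5, and 20.9% of all genes tested did not overlap between the siRNAs. The difference over both treatments was 0.20 (SE 0.05, 95% interval 0.08 to 0.33), and its limma adjusted p of 0.0502 did not pass the threshold of 0.05. It passed under 4 of 16 alternatives, the replicate block (adjusted p = 0.0160) among them, and not under the rest. When arrays were left out, the difference was 0.18 to 0.22. With vehicle it was 0.17 (adjusted p = 0.267). With E2 it was 0.23 (adjusted p = 0.171). E2 effects on Slc25a1 were -0.09 and -0.03 in the 2 siRNA conditions.

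Slc25a10, the dicarboxylate carrier that exchanges malate or succinate for phosphate, stayed between 211 and 265 on all arrays. Its difference over both treatments was -0.05 (SE 0.09, 95% interval -0.26 to 0.16), and both E2 effects were near 0.14 to 0.15. Slc25a11, the 2-oxoglutarate carrier of the malate-aspartate shuttle, stayed between 8515 and 10287. Its difference over both treatments was -0.04 (SE 0.07, 95% interval -0.21 to 0.13). The missing calls do not show that these genes were unchanged.

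**Figure D2:**
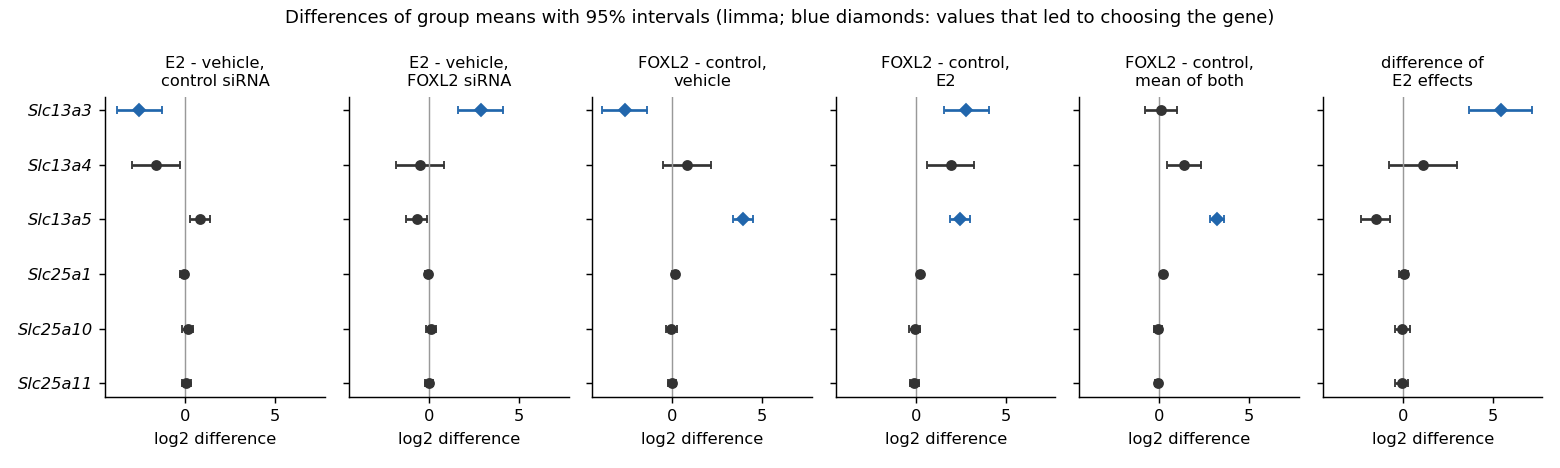
Differences of group means on the log2 scale for the 6 transporter genes tested, in 6 comparisons, with 95% intervals from limma. Blue diamonds mark the values that led to choosing Slc13a5 and Slc13a3. They also mark the differences of Slc13a3 between the siRNAs within each treatment, which use the same arrays. None of these carries a test. The intervals of Slc25a1, Slc25a10 and Slc25a11 are narrow and lie near 0, and those of Slc13a3 and Slc13a4 are wide.

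Counted over the 6 genes tested, E2 gave 0 calls with control siRNA, where 0.0192% of all 15637 genes were called, and 0 calls with FOXL2 siRNA, where 0.0128% were. At an unadjusted p under 0.05, limma gave 3 of these genes with control siRNA, beside 4.58% of all genes, and 2 with FOXL2 siRNA, beside 3.06%. Slc13a3, which was chosen for these effects, is among them in both, as is Slc13a5, whose choice used the same arrays. FOXL2 siRNA gave 2 calls with vehicle (6.57% of all genes), Slc13a5 higher and Slc13a3 lower, and 2 with E2 (4.39% of all genes), both higher. Over both treatments it gave 1, Slc13a5, against 12.6% of all genes, and the difference of E2 effects gave 1, Slc13a3, against 0.243%. These calls fell only on the genes chosen from values of the same arrays, and nothing is read from them. The median difference over both treatments was 0.15 over the 6 genes and 0.00 over all genes. The study's methods define E2 targets by a difference of at least 1 and over 2 times the sum of both SDs. This rule was applied here without the subtraction of a median for each replicate that the methods describe. Slc13a3 met the rule in both siRNA conditions, as 0.454% and 0.217% of all genes did. This restates the values it was chosen for, from dim arrays, and nothing is read from it.

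The genes with patterns most like those of Slc13a5 and Slc13a3 were then looked up among 13133 genes. Likeness was the root mean square difference between log2 levels over the 8 arrays, each gene centred on its own mean. Closest to Slc13a5 were Acer1, an alkaline ceramidase (0.42), Mybpc3, the cardiac myosin-binding protein C (0.47), and Nkain3, which interacts with the sodium pump (0.47). Mybpc3 had a mean log2 level of 10.13 with control siRNA and vehicle and of 12.94 with FOXL2 siRNA and vehicle, and Acer1 had 4.47 and 8.17. In each of these genes, as in Slc13a5, the E2 means lay between the vehicle means. Closest to Slc13a3 were Rhd, a Rhesus blood group gene (0.38), Hs3st6, a heparan sulfate sulfotransferase (0.62), and Cacna1a, a calcium channel subunit (0.67). Hs3st6 and Cacna1a were well above background on 8 of 8 arrays, unlike Slc13a3, and Rhd on 4. The scaled signal of Hs3st6 was 408 and 624 with control siRNA and vehicle, and 65.6 and 85.1 with control siRNA and E2. It was 55.4 and 64.5 with FOXL2 siRNA and vehicle, and 265 and 284 with FOXL2 siRNA and E2. The opposite E2 directions of Slc13a3 were also present in a gene with measured levels in every group. These genes were selected for likeness, so their agreement is a description.

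**Figure D3:**
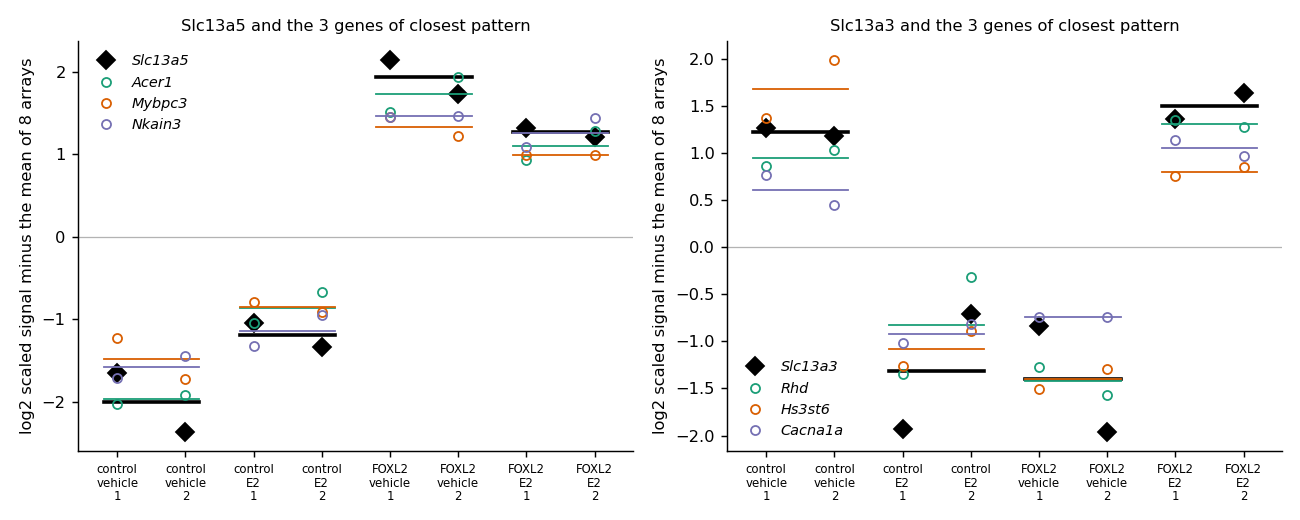
Log2 scaled signal of Slc13a5 and of Slc13a3 minus each gene's mean over the 8 arrays, with the 3 genes of most similar pattern. Points are arrays, bars are means of 2 arrays, and the columns are replicates 1 and 2 of each group. In the left panel the arrays split by siRNA, and in the right panel the vehicle and E2 arrays change places between the siRNAs.

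Genes around these transporters were taken from 6 lists, with 68 genes tested. They cover the TCA cycle, cytosolic use of citrate and malate, mitochondrial anaplerosis (reactions that feed the cycle), other mitochondrial anion carriers, other plasma membrane carriers, and sulfate activation with N-acetylaspartate. E2 gave 0 calls with control siRNA and 0 with FOXL2 siRNA, beside 0.0192% and 0.0128% of all genes. The difference of E2 effects gave 0, beside 0.243%. At an unadjusted p under 0.05, limma gave 5 and 1 of the 68 genes for E2, beside 4.58% and 3.06% of all genes. It gave 7 for the difference of E2 effects, beside 4.89%. FOXL2 siRNA gave 0 higher and 4 lower genes with vehicle, 5.88% of the genes on these lists beside 6.57% of all genes. With E2 it gave 1 higher and 2 lower, 4.41% beside 4.39%. Over both treatments it gave 5 higher and 7 lower. The last count was 17.6% of the genes on these lists, beside 12.6% of all genes, of which 6.4% were higher and 6.18% lower.

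The TCA cycle enzymes gave no call. All 18 were tested, 0 passed in any of the 6 comparisons, and their median difference over both treatments was -0.07. In the cytosol, where 11 genes were tested, 2 rose and 1 fell over both treatments. Acly, ATP citrate lyase, rose by 0.26 (SE 0.07, limma adjusted p = 0.0459), and Me1, the malic enzyme that makes NADPH, by 0.65 (adjusted p = 0.0275). Both calls were lost in most fits that left out an array, where the differences were 0.21 to 0.31 and 0.51 to 0.80. Acacb, an acetyl-CoA carboxylase of the mitochondrial surface, fell by 0.50 (adjusted p = 0.00658). With E2 alone, Got1, the cytosolic aspartate aminotransferase, rose by 0.55 (adjusted p = 0.0360), but its difference was -0.31 with vehicle (adjusted p = 0.173) and 0.12 over both treatments (adjusted p = 0.387). The call of Got1 was kept in 2 of 8 fits with an array omitted (adjusted p up to 0.202).

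Among 11 genes of mitochondrial anaplerosis, 2 fell and 1 rose over both treatments. Pck2, the mitochondrial PEP carboxykinase, had scaled signals of 87.9 to 111 with control siRNA and 49.1 to 58.3 with FOXL2 siRNA, and fell by 0.85 (SE 0.13, limma adjusted p = 0.00556). Got2, the mitochondrial aspartate aminotransferase, fell by 0.30 (adjusted p = 0.0163), and Me3, a mitochondrial malic enzyme, rose by 0.44 (adjusted p = 0.0271). The arrays of Pck2 did not overlap between the siRNAs.

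Of 11 other mitochondrial carriers tested, 2 fell over both treatments. Slc25a12, the aspartate-glutamate carrier, fell by 0.38 (limma adjusted p = 0.0297), and Slc25a30 by 0.77 (adjusted p = 0.0255). Both falls passed with vehicle, at -0.63 and -1.20, and not with E2, at -0.13 (adjusted p = 0.696) and -0.34 (adjusted p = 0.571). The difference between the treatments was not called for either gene (adjusted p = 0.833 and 0.952). Of 8 other plasma membrane carriers tested, 1 rose, Slc16a3, the lactate exporter, by 1.15 (adjusted p = 0.0255).

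In the list of sulfate activation and N-acetylaspartate, with 9 genes tested, the called genes moved in opposite directions. Nat8l, the enzyme that makes N-acetylaspartate, rose by 2.48 (SE 0.50, limma adjusted p = 0.0162). Its scaled signal was 14.7 to 34.1 with control siRNA and 69.1 to 235 with FOXL2 siRNA. It was well above background on 6 of 8 arrays. Rimkla and Rimklb, which join N-acetylaspartate to glutamate, both fell. Rimkla fell by 1.00 (adjusted p = 0.00744), and Rimklb fell by 2.03 (adjusted p = 0.00992). Rimklb was near background with FOXL2 siRNA, at 6.04 to 16.2, against 26.5 to 53.7 with control siRNA. Papss2, which makes the activated sulfate PAPS, fell by 1.51 with vehicle (adjusted p = 0.0385), a call kept in 2 of 8 fits with an array omitted (adjusted p up to 0.205). Its difference was -0.19 with E2 (adjusted p = 0.849) and -0.85 over both treatments (adjusted p = 0.0553).

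The calls of Pck2, Acacb, Rimkla and Rimklb over both treatments were kept in each of the 8 fits that left out 1 array. Each of the other 8 calls over both treatments was lost in some of these fits. Acly, Me1, Me3, Slc25a12 and Slc25a30 were lost in more of them than kept the call, Acly in the most. Got2 and Slc16a3 were lost in as many as kept the call, and Nat8l in fewer. Without replicate 2 of FOXL2 siRNA with vehicle, 5 of the 12 calls were kept, the fewest, and 10 were kept when replicate 1 of the group given FOXL2 siRNA and E2 was left out, the most. With normexp background correction Rimklb was -0.38 and not called (adjusted p = 0.118). Without the intensity trend in limma 6 of the 12 calls were kept, and with no filter 8.

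**Figure D4:**
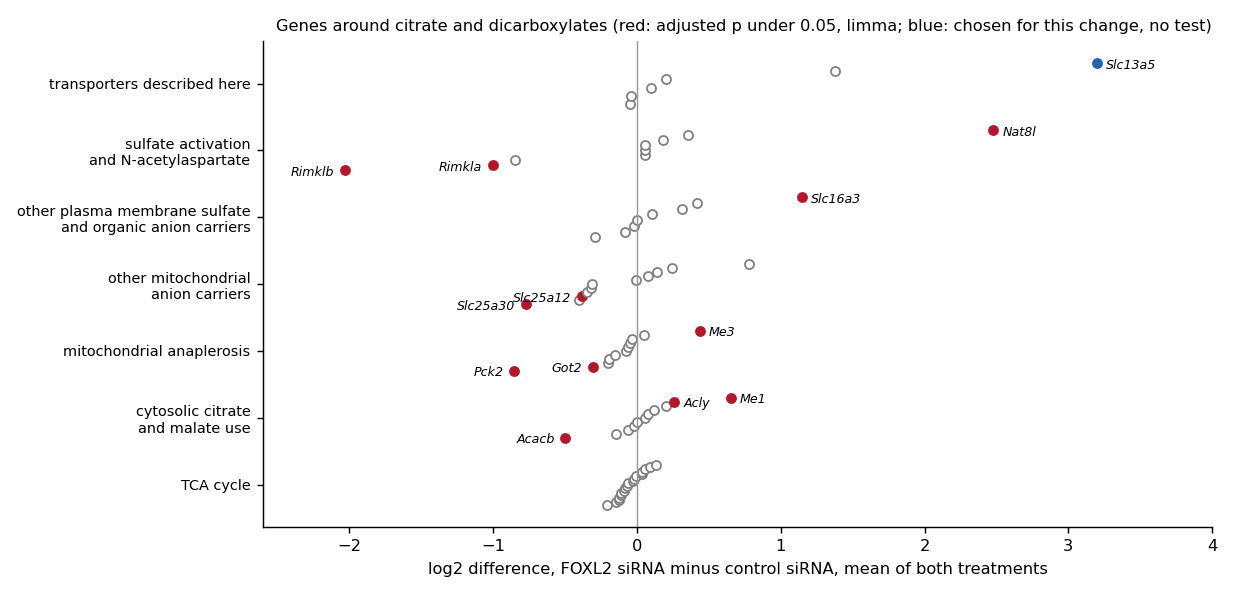
Difference between FOXL2 siRNA and control siRNA, as the mean of both treatments on the log2 scale, for the genes of 6 lists and the 6 transporters tested. Each point is a gene, red points passed the adjusted threshold of 0.05, and Slc13a5 in blue was chosen for this change. The TCA cycle genes lie close to 0, and the points farthest from 0 are Slc13a5, Nat8l and Rimklb.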

How the data were processed

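RNA (50 ng per sample) was hybridised to one-colour Agilent arrays. Per the file headers, the deposited scans give spot intensity with the background subtracted by the authors' software. The authors' deposited table, on a log2 scale, equalled the mean processed intensity over the 75th percentile at 98.8 to 99.0% of values within 0.001, after an array offset of -0.22 to -0.19.

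The 3671 control spots and 39 probes with outlier flags were left out, and 55642 of the probes were used. Processed intensity was divided by the 75th percentile of the array (275 to 367) and multiplied by 320, and probes with one Entrez ID were averaged. On each array, 51.4 to 55.6% of probes stood well above background and 0 were saturated. Arrays carry no read depth, and 2 arrays per group limit the precision. Of 24235 genes, 15637 with a median of at least 10 were fitted with limma version 3.58.1 (R version 4.3.3) as 4 group means, with 4 residual degrees of freedom, an intensity trend, two-sided tests and Benjamini-Hochberg adjustment. Of the genes, 22352 had a RefSeq symbol. The code was tested on simulated data. Plots were made with matplotlib 3.10.9. Where no array of a group detected a gene and every array of the other group did, its fold is a bound, written "at least". The bound is taken from the mean of the detected group and leaves out the spread between arrays.

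The transporters and lists were chosen with earlier results of these data known. Named are the transporters, Foxl2, the 3 genes most alike to Slc13a5 and to Slc13a3, and per list up to 4 genes that passed in any comparison, by smallest adjusted p, except 1 gene that is not reported here and was left out of the list counts. Alternatives were normexp background (on median signals), quantile normalization, other filters, the brightest probe, the authors' table, no trend, only the groups compared, a replicate block, and leaving out each array; applying them to the list genes was decided after seeing the data.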

Additional observations from a re-analysis of the deposited data

Results flagged for a closer look

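For 3 transporters both arrays moved one way with E2 under control siRNA and both moved the other way under FOXL2 siRNA. Among all genes tested 902 of 15637, or 5.77%, had such opposite E2 effects without overlap, and Slc13a3 was chosen for this pattern. Slc13a5 was chosen for differences between the siRNAs that use the same arrays. Slc13a2 was not among the genes tested, and no array of it under FOXL2 siRNA was well above background. The count of 3 is therefore not read against this share. Slc13a3 had a difference of E2 effects of 5.44 on the log2 scale, lower with E2 under control siRNA and higher under FOXL2 siRNA. It was dim, with scaled signals of 2.94 to 35.7, and only the bounds of the report hold where it was not well above background. Slc13a2 had a difference of 3.35 in the same direction, but this was not tested, since its median scaled signal of 6.73 lay below the filter of 10, and it was well above background on 1 of 8 arrays. Slc13a5 had a difference of -1.49, in the opposite direction, which limma did not call (adjusted p = 0.336) without the replicate block, although the gene was well above background on all 8 arrays. The part that the single array or the dim signal had in these values was not tested.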

How the results depend on the processing

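Across 36 tested changes of the transporters and their alternatives, 600 values in all, 534 kept the direction and the side of the threshold. The 3 knockdown differences of Slc13a5 kept their direction under all alternatives, at 2.24 to 4.31.

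The counts of called transporters moved as follows. With E2 alone against vehicle, 0 became 2 with the replicate block in either siRNA condition (Slc13a3 and Slc13a5). For FOXL2 siRNA with vehicle, 2 became 1 with normexp, with no filter and with only the groups compared, and with E2 2 became 1 with the latter pair of settings. Leaving out arrays gave 1 to 2 with vehicle and 1 to 3 with E2. Over both treatments, 1 became 2 with normexp (adding Slc13a4) and with quantile normalization, the filter on detected genes and the authors' table (each adding Slc25a1), and 3 with the replicate block. Leaving out arrays gave 1 to 2. For the difference of E2 effects, 1 became 0 with normexp, quantile normalization, no filter, the brightest probe, the authors' table and no trend, became 2 with the replicate block, and was 0 in all fits that left out an array, which have fewer residual degrees of freedom. By the study's rule for E2 targets, 2 became 0 with normexp and 3 with no filter (adding Slc13a2 under FOXL2 siRNA). The offset of 50 that normexp adds shrinks dim genes by construction, and the causes of the other moves were not tested.

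Directions that turned were all of uncalled differences. Slc25a1 with E2 under FOXL2 siRNA became 0.017 with quantile normalization. With normexp, Slc25a11 became 0.054 (vehicle) and 0.013 (both treatments), and the differences of E2 effects became -0.14 for Slc13a4 (from 1.12) and 0.0084 for Slc25a10. When arrays were left out, the following changes lay on both sides of 0. Slc13a3 over both treatments ranged from -0.21 to 0.41. Slc25a10 ranged from -0.12 to 0.027 (FOXL2 siRNA, vehicle), -0.16 to 0.059 (E2), -0.10 to 0.0071 (both) and -0.12 to 0.10 (difference of E2 effects). Slc25a11 ranged from -0.0078 to 0.15 and from -0.088 to 0.12 (E2 effects), -0.12 to 0.092 (vehicle), -0.15 to 0.012 (E2), -0.094 to 0.011 (both) and -0.16 to 0.049 (difference of E2 effects).

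The labels give the same replicate numbers in each group but do not say that a number marks a shared pool. Deviations from group means correlated between same-numbered arrays at 0.33 to 0.45 over the 6 pairs of groups. With the replicate number as a block, the calls over all genes rose from 3 to 182 and from 2 to 96 for E2, from 1966 to 4325 for FOXL2 siRNA over both treatments, and from 38 to 332 for the difference of E2 effects. Under this block Slc13a5 passed in limma for E2 (0.82, adjusted p = 0.0100, and -0.67, adjusted p = 0.0430) and for the difference of E2 effects (-1.49, adjusted p = 0.000987). These values share arrays with the differences that led to the choice of Slc13a5, and nothing is read from their calls. Between the siRNAs, Slc13a4 passed with E2 (adjusted p = 0.0126) and over both treatments (adjusted p = 0.00729), and Slc25a1 over both treatments (adjusted p = 0.0160).

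Signals of Slc13a1, Slc13a2, Slc13a3 and Slc13a4 lie close to background, where a difference cannot be measured beyond its bound. For the difference of E2 effects and the mean over treatments a fit of only the groups compared holds all 4 groups, so it has no separate value.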
